A study of Danio rerio with 8 samples.

Results

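The heat shock and endoplasmic reticulum (ER) chaperone genes described here are 87 of the 25309 genes listed in an RNA-seq study of adult zebrafish spinal cord. They were chosen by symbol alone, as every gene whose name begins with hsp followed by a digit or the letter a, with dnaja, dnajb or dnajc, with pdia and a digit, or with calr, canx, xbp1, ddit3, atf4, atf6 or herpud. By role they comprise 4 HSP90 genes, 14 HSP70 genes, 51 J-domain genes (5 of class A, 14 of class B and 32 of class C), 4 ER lectin chaperones, 7 protein disulfide isomerases, 5 transcription factors of the unfolded protein response and 2 HERPUD genes. The study asked how loss of mstnb, which encodes a zebrafish myostatin, affects the uninjured and the injured cord. There were 4 groups of 2 libraries each: mstnb mutants (-/-) at 1 week after complete cord transection (1 wpi), wild-type siblings at the same time, mutants with an uninjured cord and wild-type siblings with an uninjured cord. All fish were adults of both sexes aged 3 to 9 months. The cut was made 4 mm caudal to the brainstem, and the tissue at 1 wpi was a 2 mm piece of cord around the lesion. The labels do not say how many fish went into a library, so p-values measure the spread between these libraries, which may be technical.

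Heat shock proteins are molecular chaperones. HSP70 binds exposed hydrophobic stretches of unfolded proteins, J-domain proteins hand substrates to HSP70 and start its ATPase. HSP90 acts later on a set of kinases, receptors and myosin. In the ER the HSP70 protein BiP (hspa5), the HSP90 protein Grp94 (hsp90b1), the lectins calreticulin and calnexin, and disulfide isomerases fold secreted and membrane proteins. When unfolded proteins build up there, the sensors Ire1, Perk and Atf6 start the unfolded protein response through the transcription factors Xbp1, Atf4 and Atf6. These raise chaperone genes and, under lasting stress, the pro-apoptotic factor Ddit3 (CHOP). Heat and protein damage in the cytosol act instead through heat shock factors on inducible genes such as hsp70l.

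Expression was measured as CPM, read counts scaled to the same total in every library, and the libraries held 20082743 to 33410514 reads. The neuronal gene elavl3, the myelin gene mbpa and the glial gene gfap were present in all 8 libraries, and mstnb was lower in the mutant libraries (10.2 to 26.4 CPM) than in wild type (42.2 to 74.8 CPM). Other tissues were present in unequal amounts. The summed level of 32 skeletal muscle genes was 1741 to 4093 CPM in the 4 injured libraries and 8670 to 31733 CPM in the 4 uninjured libraries, with 16 of the 32 genes lower in every injured library. That of 20 macrophage and microglia genes was 16359 to 21733 CPM in injured and 1753 to 2917 CPM in uninjured libraries, with 17 of the 20 higher in every injured library. That of 14 radial glia and ependyma genes was 15152 to 16975 CPM in injured and 8379 to 10766 CPM in uninjured libraries, with 10 of the 14 higher in every injured library. That of 13 oligodendrocyte genes was 46563 to 53102 CPM in injured and 90670 to 138479 CPM in uninjured libraries, although 6 of the 13 were higher and 2 lower in every injured library. Mitochondrial genes took 3.74% to 4.19% of reads in injured and 7.13% to 10.2% in uninjured libraries. The summed level of 11 erythrocyte genes was 1077 to 1350 CPM in injured and 1704 to 8199 CPM in uninjured libraries. Mutant uninjured 1 stood apart, with the highest mitochondrial share, most oligodendrocyte RNA and the lowest TMM factor (0.685, against 0.813 to 1.19 elsewhere), a factor below 1 meaning that most genes took fewer reads there. The libraries mutant 1 wpi 1 and wild type uninjured 1 held most oocyte RNA (2223 and 1785 CPM over 22 genes, against 22.9 to 629 CPM elsewhere), and wild type uninjured 1 also held 7678 CPM of 27 liver genes, against 118 to 803 CPM elsewhere.

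Of the 87 genes, 83 reached a mean of 1 CPM in at least 1 group and were tested, and the 4 others (dnajb9a, dnajc22, dnajc28 and dnajc5b) stayed below 1 CPM in every library. Together the 87 genes took 0.947% and 1.03% of all reads in mutants at 1 wpi and 0.966% and 1.03% in wild type at 1 wpi, against 0.484% and 0.727% in uninjured mutants and 0.549% and 0.708% in uninjured wild type. The share was higher in every injured library than in any uninjured library. The abundant oligodendrocyte and mitochondrial transcripts took fewer reads in the injured libraries, CPM is itself a share of reads, and their part in the rises was not tested. Most of the share lay in HSP90 and HSP70 genes, which took 0.341% to 0.389% and 0.236% to 0.264% of reads in injured libraries, against 0.187% to 0.281% and 0.0900% to 0.150% in uninjured libraries. Single genes held most of these sums. In injured libraries hsp90ab1 had 3043 to 3435 of 3414 to 3890 CPM, and hspa8 had 1703 to 1905 of 2358 to 2638 CPM. Averaged over genotypes, the injury change of 8 of the 14 HSP70 genes and 2 of the 4 HSP90 genes lay below the median of all genes. The sums therefore do not describe every gene of a family. In whole tissue, more cells of a type and more RNA per cell cannot be told apart. The macrophage and microglia genes separate the same libraries, only mpeg1.2 was at 0 (in wild type 1 wpi 1), and their part in the injury changes given here was not tested.

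After transection the cytosolic chaperone genes hspa8 and hsp90ab1, the ER chaperone genes hspa5, hsp90b1 and dnajb11, 3 of the 4 ER lectins, 2 of the 7 disulfide isomerases and 3 of the 5 unfolded protein response factors rose. By family, 2 of the 4 HSP90 genes and 2 of the 14 HSP70 genes rose, and 1 of each fell. The muscle HSP90 gene hsp90aa1.1 and the inducible hsp70l fell, and most J-domain genes did not pass the test. With the injury change averaged over both genotypes (4 injured against 4 uninjured libraries), 14 of the 83 tested genes rose (16.9%, against 11.0% of all 19114 genes tested) and 2 fell (2.41%, against 1.21% of all genes), in limma at a Benjamini-Hochberg adjusted p under 0.05. The median of the tested members lay 0.07 below the median of all genes on the log2 scale, with 38 members above that median and 45 below. The median of all genes was itself 0.32 above 0 in this comparison on log2(CPM + 1), and 0.0015 after TMM scaling, which equalises the bulk of genes between libraries. Changes are therefore given relative to the median gene, with the standard error of the fit, while the test is of the change in CPM itself. Because the median gene lay 0.32 above 0, that test calls rises more readily and falls less readily than the printed changes imply. With TMM scaling 4 members rose (4.82% of those tested, against 5.31% of all genes) and 4 fell (4.82%, against 3.18%): hspa8, calr3a, pdia6 and atf4a were higher, and hsp90aa1.1, hsp70l, dnajc27 and hsp90aa1.2 were lower. DESeq2 called 9 members higher and 7 lower, where 14.4% of all genes were called. Its lower genes were the same 4 with dnajc18, dnajb1a and dnajb1b, so the balance of rises and falls depended on the scaling. The calls of hspa5, hsp90b1, hsp90ab1, dnajb11, dnajb13, canx, calr3b, xbp1 and ddit3 were lost when any of the 4 injured libraries was left out. All of these except dnajb11 and canx were also lost without mutant uninjured 1 (highest adjusted p over all alternatives 0.281, for ddit3).

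**Figure D1:**
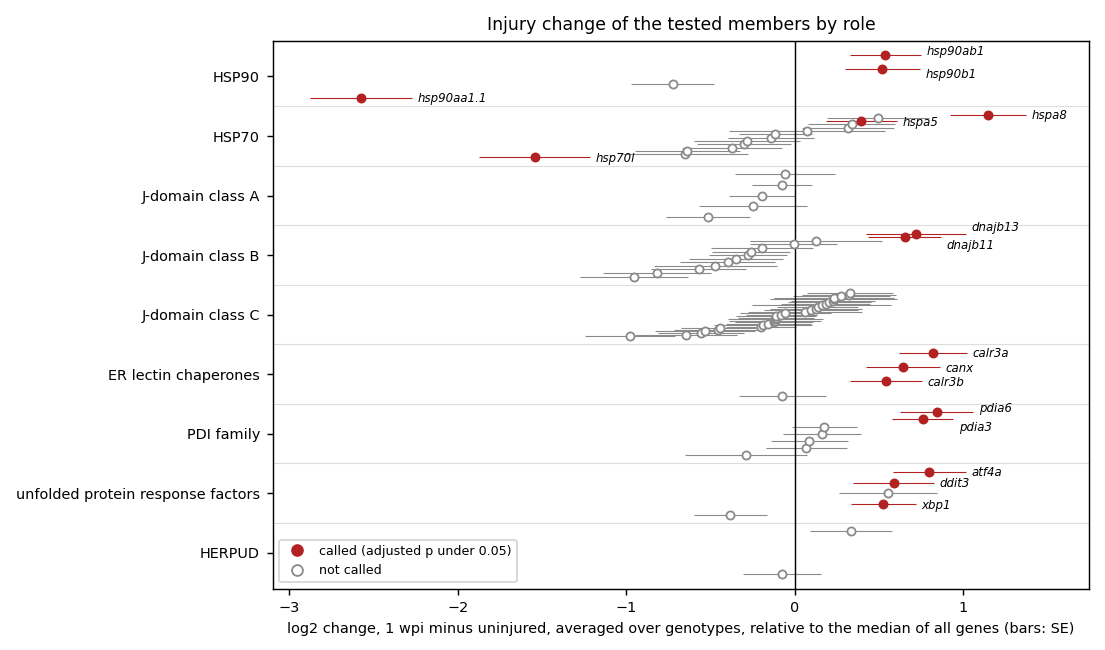
Injury change of the 83 tested genes by role: each point is 1 gene, placed by its log2 change at 1 wpi against uninjured cord, averaged over genotypes and relative to the median of all genes, with bars of 1 standard error. Filled points have an adjusted p under 0.05 for the change in CPM itself, not for the change relative to the median. The ER lectins, the disulfide isomerases and the unfolded protein response factors lie mostly right of 0, hsp90aa1.1 stands alone at -2.58, and all 29 class C J-domain genes are open points.

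Among the cytosolic chaperones, hspa8 encodes Hsc70, the HSP70 that cells make without stress. It had 1703 and 1905 CPM in mutants at 1 wpi and 1824 and 1818 CPM in wild type at 1 wpi, against 589 and 893 CPM in uninjured mutants and 451 and 780 CPM in uninjured wild type. The injured libraries lay close together and all stood above the uninjured ones. The change was 1.15 ± 0.226 (SE, log2; adjusted p = 0.00183 in limma). The gene was also called in each genotype alone, at 0.94 ± 0.320 in mutants (adjusted p = 0.0478) and 1.33 ± 0.320 in wild type (adjusted p = 0.0177). In mutants it was not called with TMM scaling (adjusted p = 0.216).

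The constitutive HSP90 gene hsp90ab1 had 3131 and 3376 CPM in mutants at 1 wpi and 3043 and 3435 CPM in wild type at 1 wpi, against 1556 and 2174 CPM in uninjured mutants and 1436 and 2127 CPM in uninjured wild type. Its groups did not overlap, and it rose by 0.54 ± 0.213 relative to the median gene (adjusted p = 0.0234). That call was lost with TMM scaling (adjusted p = 0.248), where the injured libraries still stood above all uninjured ones. The mitochondrial HSP70 gene hspa9 had 81.8 to 118 CPM in injured and 31.1 to 87.8 CPM in uninjured libraries, which overlap, and was not called (0.50 ± 0.303, adjusted p = 0.103).

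The HSP90 gene hsp90aa1.1, known in zebrafish as the HSP90 that folds myosin in skeletal muscle, fell most of the 83 genes. It had 3.01 and 5.15 CPM in mutants at 1 wpi and 6.37 and 4.86 CPM in wild type at 1 wpi, against 25.4 and 29.5 CPM in uninjured mutants and 37.7 and 17.1 CPM in uninjured wild type. All injured libraries were below all uninjured ones. The change was -2.58 ± 0.303 averaged over genotypes (adjusted p = 0.000796), -2.88 ± 0.429 in mutants (adjusted p = 0.0108) and -2.30 ± 0.429 in wild type (adjusted p = 0.0238). The muscle transcripts moved the same way. Their summed level was 3777 and 4093 CPM in mutants at 1 wpi and 1741 and 2347 CPM in wild type at 1 wpi, against 15872 and 16527 CPM in uninjured mutants and 31733 and 8670 CPM in uninjured wild type. Their part in the fall of hsp90aa1.1 was not tested. At most 1 of the 32 muscle genes was at 0 in any library (smyhc1, tnni2b.1, myhz1.2 or casq1a). Among the uninjured libraries wild type uninjured 1 had most and wild type uninjured 2 least of both muscle RNA and hsp90aa1.1. Among the injured libraries the order differed: wild type 1 wpi 1 had least muscle RNA and most hsp90aa1.1.

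**Figure D2:**
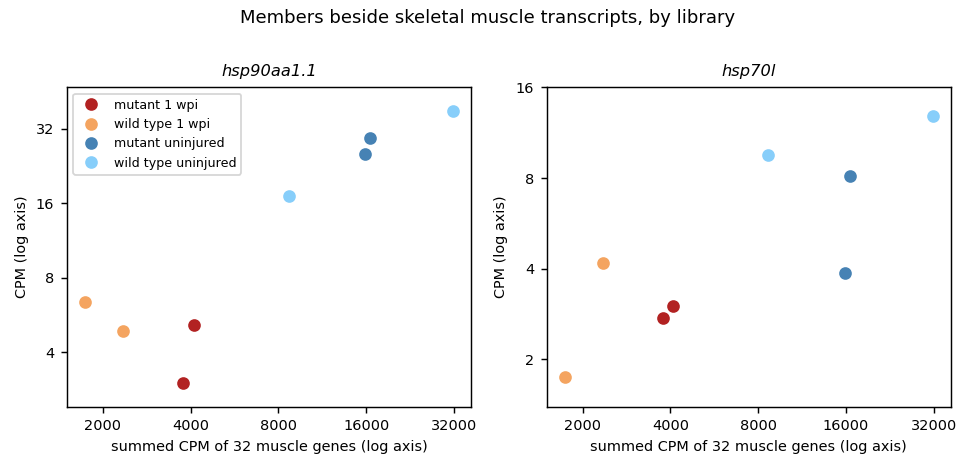
CPM of hsp90aa1.1 (left) and hsp70l (right) against the summed CPM of 32 skeletal muscle genes, both axes logarithmic, with 1 point per library coloured by group. The 4 injured libraries lie at the low end of the muscle axis (1741 to 4093 CPM) and the 4 uninjured libraries at the high end (8670 to 31733 CPM), so injury and muscle content separate the same libraries.

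Its neighbour hsp90aa1.2 had 297 and 300 CPM in mutants at 1 wpi and 263 and 342 CPM in wild type at 1 wpi, against 243 and 526 CPM in uninjured mutants and 392 and 498 CPM in uninjured wild type. The uninjured mutants straddled the injured libraries, and the gene was not called (-0.72 ± 0.246, adjusted p = 0.301). It was called lower with TMM scaling (adjusted p = 0.0227). RefSeq places hsp90aa1.1 and hsp90aa1.2 next to each other, and likewise hsp70.1, hsp70.2 and hsp70.3. How reads that match several such copies were assigned is not given in the sources used here, so the split of reads within each set is uncertain.

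The heat-inducible genes were scarce in all 8 libraries and were not higher after injury. The zebrafish heat shock gene hsp70l had 2.74 and 3.00 CPM in mutants at 1 wpi and 1.74 and 4.19 CPM in wild type at 1 wpi, against 3.86 and 8.14 CPM in uninjured mutants and 12.8 and 9.50 CPM in uninjured wild type. Injured and uninjured libraries overlap between 3.86 and 4.19 CPM, and it fell by 1.54 ± 0.331 relative to the median gene on the log2 scale (adjusted p = 0.0323). The call was lost when any of 5 libraries was left out (every injured library and mutant uninjured 2; adjusted p up to 0.164 without wild type 1 wpi 1). In each genotype alone it was not called (mutants -1.15 ± 0.468, adjusted p = 0.422; wild type -1.96 ± 0.468, adjusted p = 0.0742), while in wild type it was called with TMM scaling (adjusted p = 0.0328).

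None of the inducible copies hsp70.1, hsp70.2 and hsp70.3 passed the test, with changes of -0.65 ± 0.372, -0.37 ± 0.297 and -0.64 ± 0.310 and levels of 1.1 to 7.31 CPM in injured and 2.57 to 11.2 CPM in uninjured libraries. In limma the same holds for dnajb1a and dnajb1b, which encode heat-inducible J-domain partners of cytosolic HSP70. DESeq2 called both lower averaged over genotypes, dnajb1a at -1.09 (adjusted p = 0.0188) and dnajb1b at -0.98 (adjusted p = 0.0369). The authors' deposited table for injury in wild type gives them -1.61 (adjusted p of 2.06e-08) and -1.71 (1.02e-06). Other members also have small adjusted p-values in that table, and its share of all genes is not given here. dnajb1a had 5.89 and 7.23 CPM in mutants at 1 wpi and 2.29 and 6.59 CPM in wild type at 1 wpi, against 7.0 and 8.62 CPM in uninjured mutants and 8.12 and 10.8 CPM in uninjured wild type (-0.95 ± 0.320, adjusted p = 0.218). dnajb1b had 6.53 and 3.61 CPM in mutants at 1 wpi and 2.74 and 3.42 CPM in wild type at 1 wpi, against 3.08 and 6.23 CPM in uninjured mutants and 6.34 and 9.71 CPM in uninjured wild type (-0.82 ± 0.321, adjusted p = 0.33). Both genotypes overlap at 1 wpi for dnajb1a, whereas for dnajb1b the injured mutants were above the injured wild type.

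**Figure D3:**
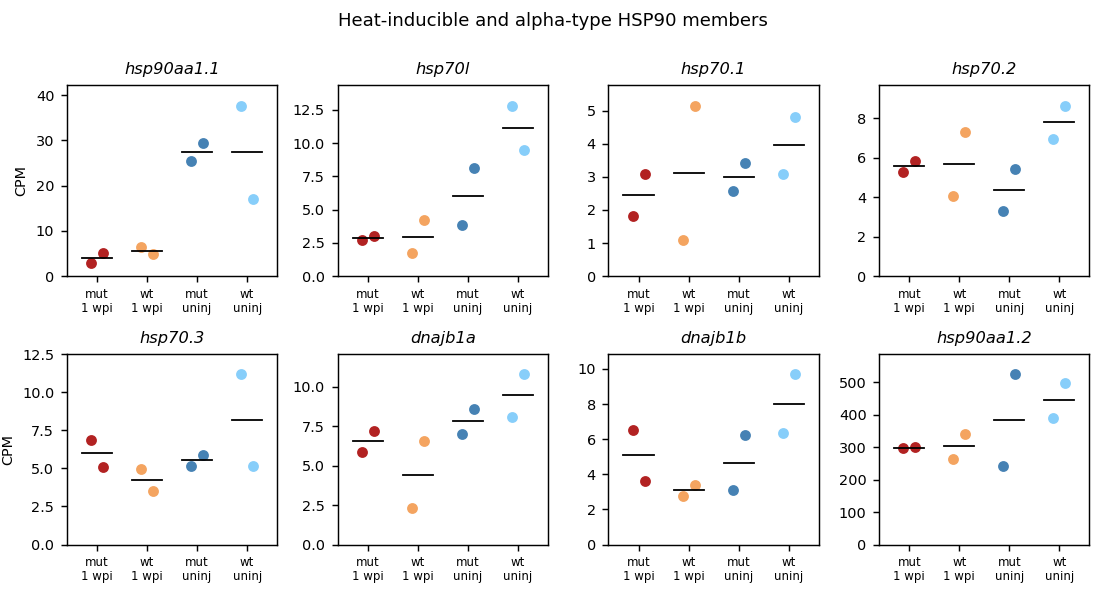
CPM of 8 heat-inducible and alpha-type HSP90 genes, with 1 point per library and a bar at the mean of the 2 libraries of each group (mut, mstnb mutant; wt, wild type; uninj, uninjured). The injured libraries of hsp90aa1.1 stay at or under 6.37 CPM while the uninjured ones start at 17.1 CPM, and the hsp70 copies overlap between injured and uninjured libraries.

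In the ER 3 of the 4 lectin chaperones rose. Calnexin and the calreticulins hold glycoproteins in the ER until they are folded. calr3a had 114 and 144 CPM in mutants at 1 wpi and 147 and 141 CPM in wild type at 1 wpi, against 47.9 and 66.8 CPM in uninjured mutants and 71.2 and 62.1 CPM in uninjured wild type. Every injured library was above every uninjured one, and the change was 0.82 ± 0.20 (adjusted p = 0.00386). In mutants alone calr3a was called at 0.80 ± 0.283 (adjusted p = 0.0466, but 0.226 with TMM scaling), and in wild type it fell just short at 0.82 ± 0.283 (adjusted p = 0.0526).

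canx had 223 and 282 CPM in mutants at 1 wpi and 245 and 280 CPM in wild type at 1 wpi, against 96.9 and 173 CPM in uninjured mutants and 126 and 142 CPM in uninjured wild type. It rose by 0.64 ± 0.219 (adjusted p = 0.0156), and calr3b, at 55.3 to 73.4 CPM in injured and 30.3 to 42.4 CPM in uninjured libraries, rose by 0.54 ± 0.214 (adjusted p = 0.0235). Both stood apart between injured and uninjured libraries with and without TMM scaling, but their calls were lost with it (adjusted p = 0.0504 for canx and 0.0978 for calr3b). For calr3b the gap with TMM scaling was narrow, 48.99 CPM in mutant 1 wpi 1 against 48.03 CPM in mutant uninjured 1. calr itself ranged from 141 to 173 CPM in injured and from 72.9 to 189 CPM in uninjured libraries, an overlap of nearly the whole range, and was not called (-0.07 ± 0.260, adjusted p = 0.572).

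Of the 7 disulfide isomerase genes, 2 were called. pdia3 encodes the partner of calnexin and calreticulin. It had 343 and 369 CPM in mutants at 1 wpi and 394 and 353 CPM in wild type at 1 wpi, against 153 and 165 CPM in uninjured mutants and 215 and 163 CPM in uninjured wild type. It rose by 0.76 ± 0.183 (adjusted p = 0.0033) and was also called in mutants alone (0.79 ± 0.259, adjusted p = 0.0332). With TMM scaling neither call held (adjusted p = 0.0692 and 0.339), although the libraries stayed apart.

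pdia6 had 90.4 and 101 CPM in mutants at 1 wpi and 111 and 104 CPM in wild type at 1 wpi, against 31.8 and 51.3 CPM in uninjured mutants and 57.2 and 43.4 CPM in uninjured wild type. Its encoded isomerase binds BiP. The gene rose by 0.84 ± 0.217 (adjusted p = 0.00536), also with TMM scaling (adjusted p = 0.0291). The other 5 genes (pdia2, pdia4, pdia5, pdia7 and pdia8) changed by -0.29 to 0.18 relative to the median gene without passing the test. The summed share of reads in the 7 genes was 0.0616% to 0.0687% in injured and 0.0281% to 0.0465% in uninjured libraries. pdia3 and pdia6 held most of this sum in every library, so it does not describe the other 5 genes.

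The genes of the central ER chaperones BiP and Grp94 were called higher as well. hspa5 had 247 and 281 CPM in mutants at 1 wpi and 278 and 282 CPM in wild type at 1 wpi, against 104 and 173 CPM in uninjured mutants and 179 and 232 CPM in uninjured wild type. The injured libraries were above the uninjured ones in CPM, by 0.40 ± 0.210 relative to the median gene. The change in CPM itself, which limma tested, was 0.71 (adjusted p = 0.0463). The highest uninjured library was near the lowest injured one and the call was lost with TMM scaling (adjusted p = 0.219). On that scale the libraries overlap, with 219 CPM in mutant 1 wpi 1 against 221 and 230 CPM in uninjured wild type. Neither genotype alone passed the test for hspa5 (0.60 ± 0.297 in mutants, adjusted p = 0.107; 0.17 ± 0.297 in wild type, adjusted p = 0.429), although with the replicate number as a block it was called in mutants (adjusted p = 0.0469). RefSeq lists overlapping genes for 29 members, and whether counting used strand is not given in the sources used here. Among the 16 genes called these are hspa5 (rabepk and 1 other), hsp90b1 (glt8d2) and hspa8 (4 snoRNA genes and a long noncoding RNA gene). Further members with such a partner include calr, hsp70.1, hsp70.2, hsp70.3, dnajb1a, dnajb1b, dnajb6a, dnajb6b, dnajb9b, dnajc10, dnajc18, pdia2, pdia5 and hspa12a.

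hsp90b1 had 100 and 114 CPM in mutants at 1 wpi and 102 and 108 CPM in wild type at 1 wpi, against 44.0 and 78.6 CPM in uninjured mutants and 64.9 and 53.8 CPM in uninjured wild type. It rose by 0.52 ± 0.222 (adjusted p = 0.0306, and 0.144 with TMM scaling). The BiP partner dnajb11 (ERdj3), which is secreted with unfolded clients, had 33.6 and 41.9 CPM in mutants at 1 wpi and 56.1 and 48.0 CPM in wild type at 1 wpi, against 16.6 and 22.3 CPM in uninjured mutants and 24.2 and 26.3 CPM in uninjured wild type. Both were higher in every injured library. dnajb11 rose by 0.65 ± 0.217 (adjusted p = 0.0138, and 0.0621 with TMM scaling).

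Of the transcription factors, atf4a, xbp1 and ddit3 rose. atf4a encodes a factor made when eIF2alpha is phosphorylated. It had 112 and 122 CPM in mutants at 1 wpi and 112 and 133 CPM in wild type at 1 wpi, against 54.7 and 82.3 CPM in uninjured mutants and 37.0 and 53.1 CPM in uninjured wild type. All injured libraries were above all uninjured ones, and the uninjured mutants were above the uninjured wild type. The change was 0.80 ± 0.217 averaged over genotypes (adjusted p = 0.00661), 0.42 ± 0.306 in mutants (adjusted p = 0.203) and 1.15 ± 0.306 in wild type (adjusted p = 0.0237). The averaged call held with TMM scaling (adjusted p = 0.0146) and was lost without mutant 1 wpi 2 or without wild type 1 wpi 3 (adjusted p up to 0.0569).

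xbp1 had 602 and 581 CPM in mutants at 1 wpi and 504 and 573 CPM in wild type at 1 wpi, against 253 and 316 CPM in uninjured mutants and 419 and 291 CPM in uninjured wild type. It rose by 0.53 ± 0.194 (adjusted p = 0.0161), with 0.69 ± 0.274 in mutants (adjusted p = 0.0599, and 0.0298 with the replicate number as a block) and 0.33 ± 0.274 in wild type (adjusted p = 0.24). Counts per gene do not separate the spliced form of xbp1 mRNA, which encodes the active factor, from the unspliced form. ddit3 had 199 and 216 CPM in mutants at 1 wpi and 207 and 215 CPM in wild type at 1 wpi, against 150 and 130 CPM in uninjured mutants and 60.1 and 131 CPM in uninjured wild type. The injured libraries lay close together, wild type uninjured 1 stood lowest, and ddit3 rose by 0.59 ± 0.240 (adjusted p = 0.0303). It was not called in mutants alone (0.20 ± 0.339, adjusted p = 0.421) or in wild type alone (0.95 ± 0.339, adjusted p = 0.0688). With TMM scaling neither xbp1 nor ddit3 was called (adjusted p = 0.224 and 0.202). After that scaling both genes overlapped between injured and uninjured libraries. The ddit3 level of mutant uninjured 1 (218 CPM) then lay above that of every injured library, the highest being 191 CPM. For xbp1, wild type uninjured 1 (516 CPM) was then exceeded only by mutant 1 wpi 1 (533 CPM).

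The second atf4 copy, atf4b, had 25.1 and 27.4 CPM in mutants at 1 wpi and 19.9 and 26.1 CPM in wild type at 1 wpi, against 17.9 and 18.6 CPM in uninjured mutants and 5.53 and 14.6 CPM in uninjured wild type. It stood apart between injured and uninjured libraries in CPM but was not called (0.55 ± 0.290, adjusted p = 0.0729). The membrane-tethered factor atf6 overlapped, at 74.5 to 114 CPM in injured and 68.6 to 129 CPM in uninjured libraries. Its change was -0.38 ± 0.216 relative to the median gene and -0.07 in CPM itself, which limma tested (adjusted p = 0.863). For injury in wild type the authors' deposited table gives atf4b 0.949 (adjusted p of 6.01e-08), atf6 -0.505 (1.88e-06) and calr -0.381 (3.69e-06). Other members also have small adjusted p-values there, such as canx (0.609) and ddit3 (0.86) higher and dnajb4 (-0.692) lower. The share of all genes with such p-values is not given here. Neither herpud1 nor herpud2, which encode ER membrane proteins of the degradation machinery, was called (-0.07 ± 0.230, adjusted p = 0.523; 0.33 ± 0.243, adjusted p = 0.106).

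**Figure D4:**
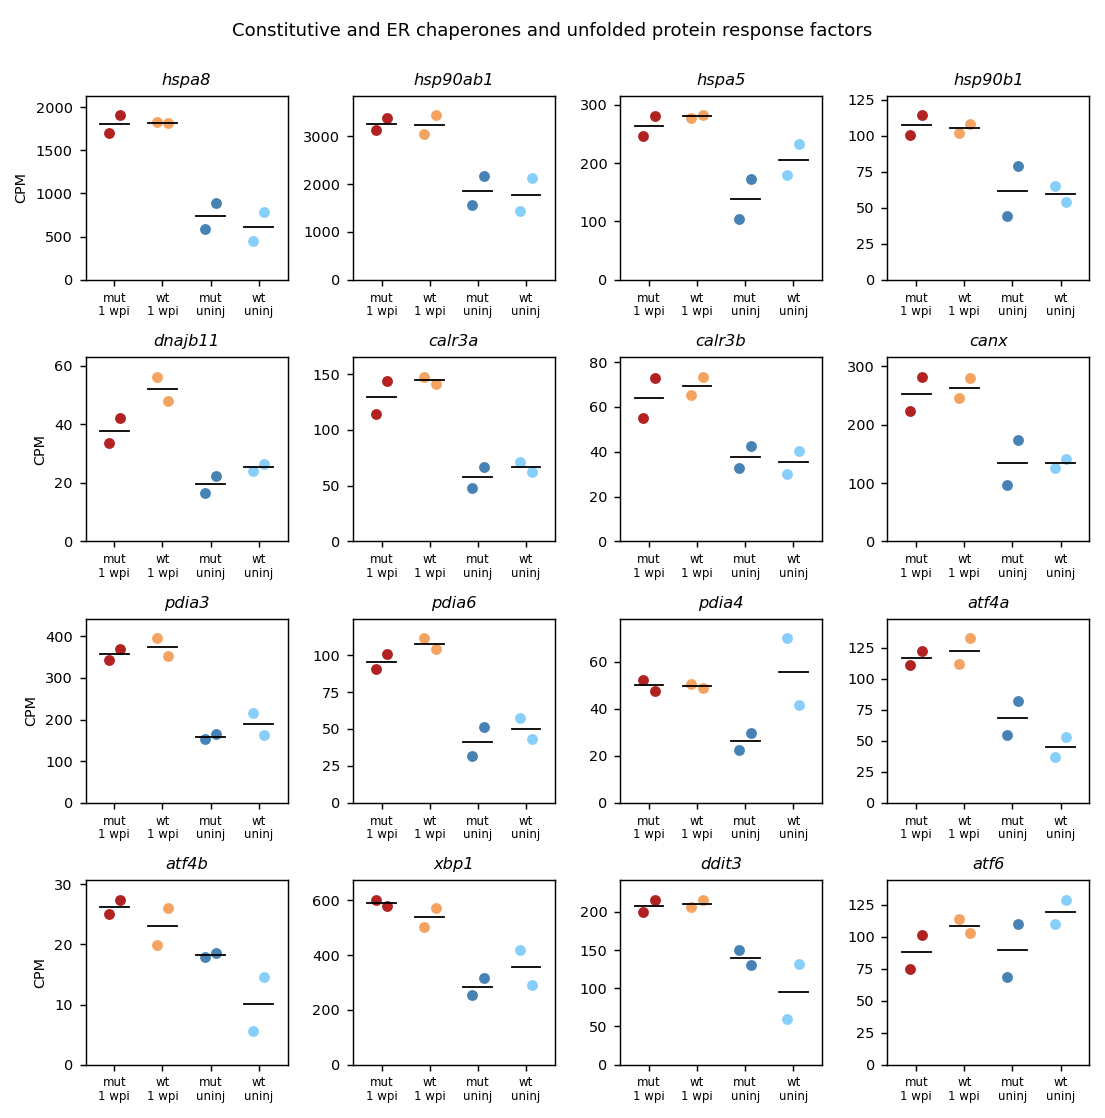
CPM of 16 constitutive and ER chaperone genes and unfolded protein response factors, with 1 point per library and a bar at the mean of the 2 libraries of each group (mut, mstnb mutant; wt, wild type; uninj, uninjured). The injured libraries of hspa8, calr3a, pdia3 and pdia6 stand clear of the uninjured ones, atf6 overlaps, and pdia4 is low in the uninjured mutants (22.6 and 29.9 CPM).

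Of the 47 tested J-domain genes, 2 of class B were called in this comparison, dnajb11 and dnajb13. They are 15.4% of the 13 tested in class B, with 0% in classes A and C, against 11.0% of all genes higher. Over all 47 J-domain genes the share called higher lay below that of all genes. With TMM scaling 0 J-domain genes were called higher, and dnajc27 was called lower (5.31% and 3.18% of all genes). DESeq2 called dnajb11 and dnajb13 higher, and dnajc27, dnajc18, dnajb1a and dnajb1b lower (14.4% of all genes in either direction). dnajb13, whose mammalian protein belongs to the radial spokes of motile cilia, had 8.68 and 8.11 CPM in mutants at 1 wpi and 5.73 and 8.71 CPM in wild type at 1 wpi, against 2.01 and 3.99 CPM in uninjured mutants and 3.30 and 4.07 CPM in uninjured wild type. It rose by 0.72 ± 0.298 (adjusted p = 0.0423, and 0.0945 with TMM scaling). The radial glia and ependyma genes, from cells that carry motile cilia along the central canal, were higher in the same libraries, and their part in the rise of dnajb13 was not tested. The 5 class A genes lay between -0.52 and -0.06 relative to the median gene, all on the lower side. The 29 tested class C genes lay between -0.98 and 0.33, with 13 above the median gene and 16 below. They include the ER proteins dnajc3a, dnajc3b and dnajc10, which bind BiP (-0.16 ± 0.252, 0.21 ± 0.246 and 0.33 ± 0.256), and the synaptic vesicle chaperone dnajc5aa (0.16 ± 0.412).

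The lowest class C gene, dnajc27, encodes a Rab-like GTPase with a J domain. It had 13.1 and 16.7 CPM in mutants at 1 wpi and 13.4 and 19.2 CPM in wild type at 1 wpi, against 15.6 and 25.8 CPM in uninjured mutants and 39.0 and 24.4 CPM in uninjured wild type. The groups overlap in CPM, and dnajc27 was not called (-0.98 ± 0.269, adjusted p = 0.131), but it was called lower with TMM scaling (adjusted p = 0.0253).

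Without scaling beyond CPM, all 4 injured libraries lay above all 4 uninjured ones for 20 of the 83 genes (24.1%, against 21.3% of all genes) and below them for 1, hsp90aa1.1 (2.44% of all genes). With TMM scaling the numbers were 11 above (13.3%, against 10.7%) and 9 below (10.8%, against 8.36%). The 11 were atf4a, calr3a, calr3b, canx, dnajb11, dnajb13, hsp90ab1, hsp90b1, hspa8, pdia3 and pdia6. The 9 were dnaja3b, dnajb1a, dnajc18, dnajc19, dnajc27, dnajc30b, hsp70l, hsp90aa1.1 and hsp90aa1.2. As shares of the 83 genes, both directions lay within a few percentage points of the shares among all genes.

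In each genotype alone the 2 libraries per group left few calls. In mutants 3 of the 83 genes were called higher (pdia3, calr3a and hspa8; 2.94% of all genes were) and 1 lower (hsp90aa1.1; 0.251% of all genes). In wild type 2 were called higher (hspa8 and atf4a; 2.90% of all genes) and 1 lower (hsp90aa1.1; 0.952% of all genes). With TMM scaling the calls in mutants were 0 higher and 1 lower (0.968% and 0.324% of all genes), and in wild type 2 higher and 2 lower (2.12% and 1.26% of all genes), the added gene being hsp70l. With the replicate number as a block, in the 6 libraries whose numbers match, 6 genes were called higher and 1 lower in mutants (6.37% and 0.753% of all genes). The 3 genes gained were pdia6 (adjusted p = 0.016), xbp1 (adjusted p = 0.0298) and hspa5 (adjusted p = 0.0469). Every call in mutants made without the block was lost without either injured mutant library, and every call in wild type without either injured wild-type library (adjusted p up to 0.473 for calr3a in mutants and 0.29 for atf4a in wild type, over all alternatives). The injury comparisons in mutants and in wild type share no library, and 64 of the 83 genes (77.1%) lay on the same side of the median gene in both, as did 13240 of all 19114 genes (69.3%).

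**Figure D5:**
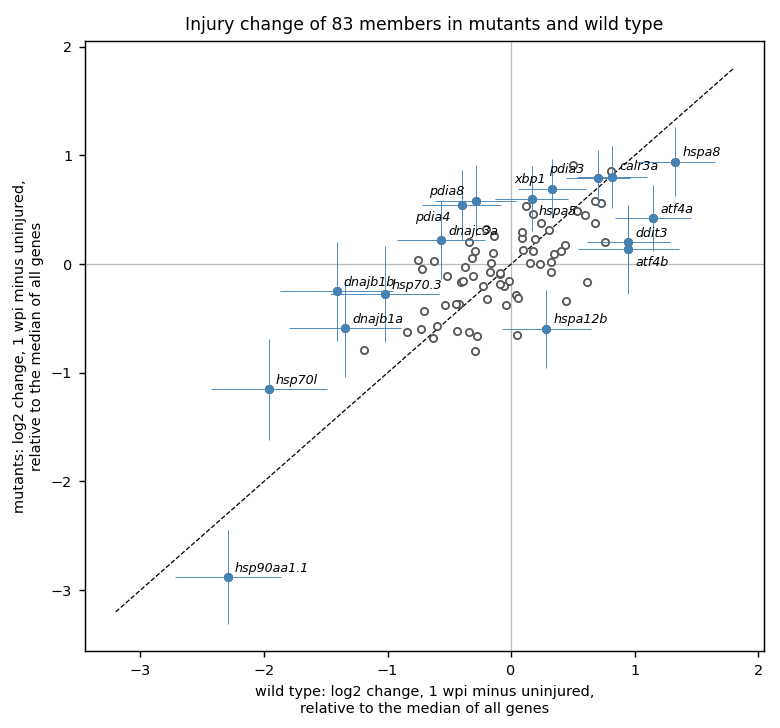
Injury change of the 83 tested genes in mutants (vertical axis) against that in wild type (horizontal axis), each as log2 change at 1 wpi against uninjured cord relative to the median of all genes, with standard errors for the labelled genes and a dashed line where both changes are equal. hsp90aa1.1 and hspa8 lie at opposite ends near the line, atf4a, atf4b and ddit3 lie below it, and pdia4, pdia8 and dnajb1b lie above it, none of them with an adjusted p under 0.05 for the difference.

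Whether the mutation altered the response was tested as the difference between the injury changes, mutant minus wild type. None of the 83 genes was called (0.560% of all genes were higher and 0.00523% lower), and 1 had an unadjusted p under 0.05, against 3.24% of all genes. With TMM scaling, edgeR and DESeq2 the count was also 0, where 0%, 0% and 1.16% of all genes were called. In these fits 2, 3 and 4 members had an unadjusted p under 0.05 (2.41%, 3.61% and 4.82%). The shares of all genes were 3.96%, 4.11% and 4.8%. The smallest p belonged to pdia4 (0.94 ± 0.456), followed by pdia8 (0.86 ± 0.462), dnajb1b (1.16 ± 0.643), dnajc3a (0.78 ± 0.503) and hspa12b (-0.89 ± 0.511), each with an adjusted p of 1. The differences for atf4a (-0.73 ± 0.433), atf4b (-0.82 ± 0.580) and ddit3 (-0.75 ± 0.479) were negative, and that for xbp1 was 0.36 ± 0.388. Those for hspa8, hspa5 and hsp90aa1.1 were -0.39 ± 0.453, 0.43 ± 0.419 and -0.59 ± 0.606. None of these passed the adjusted threshold.

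Between uninjured mutants and uninjured wild type no member was called, nor was any other gene (0% higher and 0% lower of all genes), and 3 members had an unadjusted p under 0.05 (3.61%, against 4.46% of all genes). With the replicate number as a block 0 members were called, while 0.0837% of all genes were higher and 0.790% lower. TMM scaling, edgeR and DESeq2 also called 0 members, where 0%, 0% and 0.439% of all genes were called. There 6, 4 and 7 members had an unadjusted p under 0.05 (7.23%, 4.82% and 8.43%). The shares of all genes were 6.65%, 6.34% and 7.92%. The smallest p was that of pdia4, a disulfide isomerase of the ER. It had 22.6 and 29.9 CPM in uninjured mutants, against 70.01 and 41.6 CPM in uninjured wild type, and 52.2 and 47.8 CPM in mutants at 1 wpi, against 50.6 and 49.1 CPM in wild type at 1 wpi. Thus the uninjured genotypes did not overlap and the injured ones did, with a difference of -0.97 ± 0.322 in uninjured cord (adjusted p = 0.794) and -0.02 ± 0.322 at 1 wpi (adjusted p of 1). With 2 libraries a group, other members also stood apart between the genotypes, uninjured or at 1 wpi. The share of all genes that did so is not given here, so this separation does not set pdia4 apart. The highest pdia4 value came from wild type uninjured 1. That library held most liver and most muscle RNA (7678 and 31733 CPM) and 1785 CPM of oocyte genes. All 27 liver genes were detected in every uninjured library. The part of such RNA in the pdia4 difference was not tested. Without wild type uninjured 1 the log2 difference of pdia4 was -0.66 (not set against the median gene), and without wild type uninjured 2 it was -1.39.

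The other genes with the smallest p in uninjured cord were hspa12b (0.90 ± 0.361), atf4b (0.99 ± 0.410), pdia8 (-0.64 ± 0.327) and hspa5 (-0.54 ± 0.297), each with an adjusted p of 0.982. hspa12b, an atypical HSP70 known from endothelial cells in mammals, had 14.8 and 22.5 CPM in uninjured mutants, against 9.64 and 9.87 CPM in uninjured wild type. Among the response factors atf4a (0.65 ± 0.306) and ddit3 (0.70 ± 0.339) were also higher in uninjured mutants without passing the test (adjusted p of 0.982 each), and xbp1 was not (-0.24 ± 0.274). For atf4b and ddit3 the difference changed with the wild-type library used. Without wild type uninjured 1 the log2 differences were 0.30 and 0.09, and without wild type uninjured 2 they were 1.56 and 1.2. The second fit leaves only wild type uninjured 1 in its group, the library with most liver and muscle RNA (7678 and 31733 CPM). The part of such RNA in these differences was not tested. For uninjured mutants over uninjured wild type, pdia4 stands at -0.99 in the authors' deposited table (adjusted p of 5.9e-16), hspa5 at -0.558 (4.04e-12) and atf4a at 0.619 (6.56e-10), sizes like those above with far smaller p-values. The share of all genes with such p-values there is not given here, so they do not set these genes apart.

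At 1 wpi no member was called between mutants and wild type (0.262% of all genes were higher and 0.00523% lower in mutants), and 0 had an unadjusted p under 0.05 in limma, with TMM scaling, in edgeR or in DESeq2. Of all genes 2.11%, 2.2%, 2.41% and 2.84% had such a p in these fits. TMM scaling and edgeR called 0% of all genes, and DESeq2 0.774%. The smallest p belonged to the histone chaperone gene dnajc9 (-0.61 ± 0.337), then to dnajb11 (-0.48 ± 0.306), dnajb6b (0.50 ± 0.392), dnajb1a (0.57 ± 0.453) and dnajb6a (0.45 ± 0.367), each with an adjusted p of 1. dnajc9 had 12.4 and 10.9 CPM in mutants at 1 wpi, against 19.0 and 17.1 CPM in wild type at 1 wpi. Of the injury-responsive genes, hspa8 (-0.04 ± 0.320), hsp90ab1 (-0.01 ± 0.301), hsp90b1 (0.01 ± 0.314), pdia3 (-0.09 ± 0.259) and atf4a (-0.08 ± 0.306) differed between the genotypes by less than 1 standard error.

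Genes of the surrounding pathways were read from 8 further lists, against a background of 11.0% of all genes higher and 1.21% lower (5.31% and 3.18% with TMM scaling). Of 27 targets of the integrated stress response, the programme that Atf4 drives, 25 were tested and 12 rose with injury averaged over genotypes, none fell, and the median was 0.49 above that of all genes (7 rose with TMM scaling). atf3, an injury-induced transcription factor, had 106 and 114 CPM in mutants at 1 wpi and 136 and 157 CPM in wild type at 1 wpi, against 8.92 and 10.5 CPM in uninjured mutants and 24.1 and 17.9 CPM in uninjured wild type (2.75 ± 0.207, adjusted p = 1.17e-05). ddit4 (2.11 ± 0.270), the amino acid transporter subunit slc3a2b (1.29 ± 0.215) and the pseudokinase gene trib3 (1.73 ± 0.288) rose as well, each at an adjusted p of 0.00104 or less. All 4 held with TMM scaling.

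Of 41 genes of ER oxidation, collagen folding and glycan processing, 10 rose, 1 fell and the median was 0.34 (5 rose and 1 fell with TMM scaling). The rises include the peptidyl-prolyl isomerases ppib (0.82 ± 0.175, adjusted p = 0.00183) and fkbp9 (1.39 ± 0.273, adjusted p = 0.00228), p4hb (0.79 ± 0.182, adjusted p = 0.00267), which encodes a disulfide isomerase that is also a subunit of collagen prolyl hydroxylase, and the translocon gene ssr1 (0.77 ± 0.215, adjusted p = 0.00733). The collagen chaperone gene serpinh1b fell by 2.03 ± 0.389 (adjusted p = 0.0147), at 3.61 to 12.9 CPM in injured and 14.6 to 38.8 CPM in uninjured libraries. The summed level of 15 fibroblast genes was 959 to 1518 CPM in injured and 447 to 682 CPM in uninjured libraries, and its part in these changes was not tested.

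Among 33 ER stress sensors and targets 27 were tested and 5 rose (3 with TMM scaling), none fell, and the median was 0.21. They were txndc5 (1.19 ± 0.227, adjusted p = 0.00156), txndc12, mbtps1, which encodes the site-1 protease that releases Atf6 (1.15 ± 0.331, adjusted p = 0.0144), hyou1, a chaperone that works with BiP (0.54 ± 0.242, adjusted p = 0.0387, not called with TMM scaling), and selenok. Of 23 tested ER-associated degradation genes 5 rose (1 with TMM scaling), led by the lectin gene os9 (1.03 ± 0.321, adjusted p = 0.0191). The median was 0.20, and the share with TMM scaling (4.35%) lay below that of all genes. Of 14 genes of the cytosolic chaperonin and prefoldin 7 rose (2 with TMM scaling), led by cct5 (0.70 ± 0.193, adjusted p = 0.00575) and cct2 (0.67 ± 0.216, adjusted p = 0.0126). The median of these was 0.41. The chaperonin folds tubulin and actin.

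Of 31 tested heat shock factors and co-chaperones, 2 rose (6.45%, below the share of all genes) and 1 fell (1 and 3 with TMM scaling), with a median of -0.05. The HSP90 co-chaperone fkbp5, a glucocorticoid target, had 530 and 593 CPM in mutants at 1 wpi and 557 and 435 CPM in wild type at 1 wpi, against 41.2 and 56.2 CPM in uninjured mutants and 17.8 and 34.3 CPM in uninjured wild type (3.57 ± 0.235, adjusted p = 6.36e-06). smyd1a, a muscle methyltransferase that acts with HSP90 on myosin, fell by 2.65 ± 0.299 (adjusted p = 0.000595). It was at 5.83 to 14.2 CPM in injured and 27.4 to 75.9 CPM in uninjured libraries, which do not overlap. hsph1, an Hsp110 gene of the heat shock response, was at 9.03 to 12.6 CPM in injured and 11.6 to 23.2 CPM in uninjured libraries and missed the threshold (-1.16 ± 0.257, adjusted p = 0.051).

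Of 15 tested mitochondrial chaperone genes 1 rose, atf5a (0.69 ± 0.293, adjusted p = 0.0435, not called with TMM scaling), which is 6.67% and below the share of all genes, and the median was -0.16. Of the 6 tested small heat shock protein genes none passed the test, and hspb11 was lower with TMM scaling (adjusted p = 0.0443). Their median was -0.41. No gene of the 8 lists was called between the genotypes, uninjured or at 1 wpi, or in the difference of the injury changes. All 8 lists were chosen with earlier results of these data known, so their counts are a description.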

How the data were processed

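RNA-seq was done on 8 spinal cord libraries, sequenced as 50 bp paired-end reads per the labels' protocols. The submitters' processing notes name Bowtie2, Cufflinks and Cuffdiff, and the sources used here do not give the genome build or the counting step with its strand setting. The deposited tables give CPM per gene, computed by the authors, beside the authors' own log2 fold changes and adjusted p-values for 3 comparisons. The CPM agree between the 4 tables within 1.13e-08 of their value. Of the CPM values, 100% came out as whole reads within 0.01 reads, which gave each library's depth. The table column of the injured wild type numbered 3 matches no label's number and was placed in its group by name.

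The main test was limma 3.58.1 in R 4.3.3 (trended prior variance) on log2(CPM + 1) over all 8 libraries with 4 group means and 4 residual degrees of freedom, for the 19114 genes averaging 1 CPM or more in any group. The p-values were adjusted over all genes tested (Benjamini-Hochberg) and called under 0.05. A log2 change on this scale understates the change of low genes. Alternatives were TMM-scaled CPM, edgeR 4.0.16 (quasi-likelihood) and DESeq2 1.42.0 on the recovered reads, other filters and pseudocounts, fewer groups in the fit, each library left out, and a replicate block. Same-numbered libraries of the 3 groups with matching numbers deviated together (correlations of 0.199 to 0.299), so the numbers were taken to pair them, although no label says what a number shares. These correlations come from the same CPM values without TMM scaling. Library 1 had the lower TMM factor in all 3 groups, so scaling and pairing cannot be told apart, and calls made only with the block rest on this assumption. Only the limma fit of injury in wild type was run on simulated data. Those data lacked the shift between libraries that TMM scaling addresses, so they do not bear on that shift or on the other fits. The text names the genes called in a comparison, or the 5 with the smallest p where fewer than 5 were called, with the main ER chaperones, response factors and cytosolic HSP90 and HSP70 genes throughout, and up to 4 called genes of each further list. dnajc3a, dnajc3b, dnajc10, dnajc5aa, dnajc27, hspa9 and the herpud genes were chosen after their values were seen.

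Members and lists were chosen with earlier results of these data known. Likeness of expression patterns over libraries is not given, since injured and uninjured libraries form separate clusters. Protein and promoter sequences were not used here.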

Additional observations from a re-analysis of the deposited data

How the results depend on the processing

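With injury averaged over genotypes 16 members were called, 14 higher and 2 lower, where 12.2% of all genes were called. TMM scaling and edgeR each called 8, 4 higher and 4 lower (8.49% and 7.86% of all genes). DESeq2 called 16, of which 9 were higher and 7 lower (14.4% of all genes). The count fell without the 2 oocyte-rich libraries (mutant 1 wpi 1 and wild type uninjured 1). Leaving out each library in turn gave 5 to 28: it was 5 or 6 without any injured library, 9 without mutant uninjured 1 and 28 without wild type uninjured 2. hsp90aa1.1, hspa8, calr3a and pdia6 were called in all 15 alternatives of this comparison, hspa5 in 4 of them and ddit3 in 5. In mutants the count was 4, and it was 1 with TMM scaling, 1 in edgeR, 2 in DESeq2, 1 without a filter, 1 without the oocyte-rich libraries and 0 to 10 with a library left out (0 without either injured mutant library or mutant uninjured 1; 10 without wild type uninjured 2). In wild type it was 3, against 8 in DESeq2, 5 with a filter of 5 CPM, 0 with only the groups compared in the fit, 0 without the oocyte-rich libraries and 0 to 17 with a library left out (0 without either injured wild-type library, 17 without wild type uninjured 2). The shares of all genes called with other filters, fewer groups or libraries left out are not given here. Those changes in the count therefore cannot be set against all genes. Where a group is left with 1 library, that library is assumed to vary like the others.

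Between uninjured genotypes 0 members were called in the main test (0% of all genes). Without wild type uninjured 2, which leaves only wild type uninjured 1 in that group, the log2 differences of ddit3, pdia4 and atf4b were 1.2, -1.39 and 1.56. Calls of that fit are not given, since 1 library shows no spread of its own. At 1 wpi and in the difference of the injury changes the count was 0 under every alternative run. With the replicate number as a block, the count in mutants was 7 and that between uninjured genotypes 0. The block changed no other call of a member. It could not be run for the comparisons with injured wild type, whose numbers do not match. Of the values of single named genes under these alternatives, 1932 kept their side of the threshold, 141 lost a call, 44 gained a call and 0 called values changed sign. The 1932 include values called neither in the main test nor under the alternative, so they do not measure how stable the calls were. The 141 are losses among the calls of the main test alone. Among the values called on neither side, 134 changed sign, each at 0.591 or less on the log2 scale in the main test. With injury averaged over genotypes these were of atf6, calr, hsp70.1, hsp70.2 and pdia4. Depth does not limit the main ER chaperones, but hsp70l, hsp70.1 and dnajb9b, at a few CPM, rest on few reads per library.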
